A study of Mus musculus with 36 samples.

Results

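Expression of the FGF ligand genes Fgf4, Fgf5, Fgf8 and Fgf15 and of the FGF receptor genes Fgfr1, Fgfr2, Fgfr3 and Fgfr4 was followed day by day as Xmas mouse embryonic stem cells (mESCs) left the naive state. These 8 genes were taken by name from the 25965 genes of the deposited table, where each of them has a line, and all 8 passed the filter on low values (at least 1 RPM in at least 4 of the 36 libraries), as did 14612 genes in all. RPM is the number of reads of a gene when its library is scaled to 1000000 reads, and RPKM is the same value per kilobase of merged exons. Over the 9 days Fgf4, which made up nearly all expression of these 4 ligands at the start, fell 25.2-fold. Fgf5 and Fgf8 came up from no or nearly no reads. Fgf15 peaked on day 4, Fgfr1 and Fgfr2 rose, and Fgfr3 and Fgfr4 stayed near the limit of detection.

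RNA-seq was performed on 36 libraries, 4 on each day from day 0 to day 8, of female Xmas mESCs of strain C57/Bl6. As derived, these cells carry GFP inserted at Hprt on 1 X chromosome and mCherry at Hprt on the other. They were expanded in 2i, which holds a MEK inhibitor and a GSK3 inhibitor, with LIF. Differentiation was induced by weaning the cells in daily steps into DME HiHi medium, which contains serum and was used without LIF. Day 0 is thus the 2i state, and the first days after it still held falling amounts of both inhibitors. Cells were replated on the day they reached full DME HiHi medium and were not passaged after that. Effects of the changing medium, the replating and time cannot be told apart here. Each day has 1 library of X14 double (replicate 1), X14 single (2), X18 double (3) and X18 single (4), where X14 and X18 are lines. What double and single stand for is not given by the labels, so they serve as names only. The paper reports that cells positive for a single reporter held only that allele, and takes their increase in culture as likely XO cells. Whether the labels refer to such cells was not tested, so both reporters may not be present in every library. The 9 days of one line and label are probably samples of 1 culture, and nothing says that the 4 libraries of a day came from separate experiments, so p-values measure the spread between these libraries, may be too small, and rest on 2 lines.

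FGF ligands are secreted proteins that bind receptor tyrosine kinases together with heparan sulfate, and the activated receptor passes the signal through the adaptor Frs2 to RAS, RAF, MEK and ERK. The MEK inhibitor of 2i blocks this cascade in naive mESCs. In the mouse embryo Fgf4 is known as the ligand of the inner cell mass and early epiblast, Fgf5 as a marker of the primed epiblast, Fgf8 as a ligand of the primitive streak and Fgf15 as an endocrine-type FGF of the early neural plate and later the gut, while Fgfr1 and Fgfr2 are the receptors most used in the epiblast and the primitive endoderm.

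The libraries held 612740 to 2445826 reads in genes (median 1297944), and 3 reads, taken as the floor of detection, equalled 1.04 to 3.9 RPM. Floors and intervals here cover counting error only, because molecules were not tagged. In the X14 libraries of day 0 X-linked expression relative to autosomal expression (the median over 569 X-linked genes minus that over 14042 autosomal genes of each log2 value less the mean of its gene over the 36 libraries) went against that of every other pair. It was −0.72 in the library labelled double and 0.63 in the library labelled single, whereas on days 1 to 8 the double library of each line lay above the single one, as it did in X18 on day 0 with 0.61 and −0.35. Whether the labels of these 2 libraries are exchanged cannot be told from the labels. An exchange would leave the means of day 0 as they are, but would change the values given here for X14 double and X14 single on day 0 and every comparison of the labels that includes day 0. Calls against day 0 that change without these 2 libraries are given both ways. The fit without them has day as its only factor and sets both lines on a later day against X18 alone on day 0. A difference between the lines and a change with day cannot be told apart in that fit. Of the defining markers on day 0, all 8 naive pluripotent ones carried reads and summed to 3989.8 to 5106 RPM, while of the 9 endoderm markers Gata6, Foxa2 and Ttr had no read and the list summed to at most 13.9 RPM.

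In the deposited table (mm10) the ligand genes lie at chr7:144861386-144865243 (Fgf4, + strand), chr5:98254184-98277030 (Fgf5, +), chr19:45736798-45742915 (Fgf8, −) and chr7:144896532-144900953 (Fgf15, +). The receptor genes lie at chr8:25513654-25575714 (Fgfr1, +), chr7:130162451-133123350 (Fgfr2, −), chr5:33721724-33737068 (Fgfr3, +) and chr13:55152640-55168759 (Fgfr4, +). Over all libraries Fgf4 held 13091 reads, Fgf5 1628, Fgf8 848, Fgf15 340, Fgfr1 6493 and Fgfr2 2254.

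On day 8 Fgf4 stood lower and Fgf5 and Fgf8 higher than on day 0, and no promoter entry was matched for Fgf8. The promoter sequences of Fgf4 and Fgf5 are shown to let the genes behind those courses be compared. Each is the 250 bases before the first base of the gene in the deposited table, from RefSeq on GRCm38.p6 (mm10), 5′ to 3′ on the + strand. The Fgf4 sequence is chr7:144861136-144861385 and the Fgf5 sequence chr5:98253934-98254183, and capitals mark GC boxes (GGGCGG) and CCAAT boxes on either strand.
Fgf4: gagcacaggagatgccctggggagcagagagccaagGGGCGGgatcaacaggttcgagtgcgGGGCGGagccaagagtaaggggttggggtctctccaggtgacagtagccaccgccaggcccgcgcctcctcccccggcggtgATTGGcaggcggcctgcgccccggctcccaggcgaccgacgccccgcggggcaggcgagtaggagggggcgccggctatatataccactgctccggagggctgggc
Fgf5: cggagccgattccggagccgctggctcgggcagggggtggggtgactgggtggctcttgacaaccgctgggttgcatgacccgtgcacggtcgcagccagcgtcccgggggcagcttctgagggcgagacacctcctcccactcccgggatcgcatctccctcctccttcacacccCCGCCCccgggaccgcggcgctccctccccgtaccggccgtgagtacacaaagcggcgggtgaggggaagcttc
The Fgf4 promoter had 71.2% G and C and 21 CG dinucleotides, with GC boxes starting 214 and 188 bases before the gene and a CCAAT box on the opposite strand at 106 bases. The Fgf5 promoter had 70.8% G and C and 24 CG dinucleotides, with 1 GC box on the opposite strand at 74 bases and no CCAAT box. Both were rich in CG beside the median of 52.4% G and C and 6 CG dinucleotides over 32851 RefSeq promoters of the same length, of which 32.7% held a GC box, 33.8% a CCAAT box and 12.4% the letters TATAAA, which neither gene had. Only these exact letters were searched, and the Fgf4 sequence holds the run tatatata near its end. The search thus does not show that either promoter lacks a TATA box. Of the other members, Fgfr3 had 2 entries with 66.8% and 72.8% G and C, Fgfr4 had 64.0%, and the Fgfr2 entry had 44.0% G and C with 2 CG dinucleotides and none of the motifs. Entries were matched for 5 of the 8 members, and a match describes these letters only.

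A gene was called changed at an adjusted p under 0.05 over all 14612 genes tested and a log2 fold change of at least 1 in either direction, in limma on the deposited log2 values. Over the 9 days together, all 8 members differed between days in limma's F test, as did 65.2% of all genes tested, with adjusted p from 1.9e-19 for Fgf4 to 0.011 for Fgfr4. The calls for Fgfr3 and Fgfr4 each rested on 1 culture, since adjusted p was 0.0991 for Fgfr3 without replicate 3 and 0.058 for Fgfr4 without replicate 2. On day 1 against day 0, 3 members and 775 of the 14612 genes had an unadjusted p under 0.05. Against day 0, limma called none of the members on day 1, when 0.0684% of all genes were called. It called 2 higher on day 2 (2.96% of all genes in either direction) and 3 higher on day 3 (8.89%). On day 4 it called 4 members higher (18.6%) and on day 5 again 4 (26.8%). On day 6 it called 5 higher and 1 lower (33.4%), on day 7 4 higher and 2 lower (35.4%) and on day 8 4 higher and 1 lower (35.0%). Without the X14 libraries of day 0 the shares of all genes called were 5.61%, 23.2% and 24.9% on days 1, 2 and 3 and 33.7%, 41.8% and 43.1% on days 5, 6 and 7, so member calls gained in that fit stand beside more calls in general. With 8 members, 1 call more or less moves their share far, so these counts are a description. The median log2 change of all genes was 0.23 on day 8 in the deposited scaling and −0.09 after quantile normalization, and the changes of the members are given without subtracting it.

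Between neighbouring days, limma called no member in the step to day 2 (0.0342% of all genes called) or in the step to day 3 (0.185%). In the first of these steps 2 members and 1253 of the 14612 genes had an unadjusted p under 0.05. In the second 1 member and 832 genes had such a p. From day 3 to day 4, 2 rose and 1 fell (5.03%). From day 4 to day 5, 1 rose and 2 fell (10.6%). From day 5 to day 6, 3 rose and 1 fell (9.72%). Late in the course 2 members fell from day 6 to day 7 (0.890%) and 1 fell from day 7 to day 8 (0.438%).

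Fgf4 was high in the naive state, rose to a maximum on day 2 and was nearly gone by day 8. On day 0 it stood at 325 RPM in X14 double, 302 in X14 single, 153 in X18 double and 206 in X18 single. On day 2 the values were 453, 411, 479 and 413 RPM in the same order. On day 8 they were 9.34, 8.26, 6.09 and 15.5 RPM, each from 7 to 18 reads. The 4 libraries of day 8 all lay below those of every day from 0 to 6, and the X18 libraries of day 0 lay below the X14 ones. The means of days 0, 1 and 2 were 247 ± 80.9, 345 ± 52.0 and 439 ± 33.0 RPM (SD, n = 4). Those of days 3 to 5 were 409.9 ± 26.8, 302 ± 25.3 and 171 ± 17.0 RPM, and those of days 6 to 8 were 90.2 ± 11.8, 29.9 ± 12.8 and 9.79 ± 4.02 RPM.

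The early rise of Fgf4 missed the fold limit and depended on the X14 libraries of day 0. Its log2 change was 0.89 ± 0.25 (SE) on day 2 (adjusted p = 0.0386) and 0.80 on day 3 (0.0328), with all 4 same-numbered pairs higher and no overlap with day 0. Without the X14 libraries of day 0 it was 1.30 (adjusted p = 0.00117) and 1.21 (0.00193), which passed, and on day 2 it also passed without replicate 1 (1.03) or replicate 2 (1.04). By line, the change of Fgf4 on day 2 was 0.46 in X14 and 1.32 in X18. Its fall was called from day 6, with a log2 change of −1.40 (SE 0.25, adjusted p = 3.8e-05), −3.10 on day 7 (9.5e-12) and −4.67 on day 8 (2.9e-16). The fall on day 6 was −0.99 without the X14 libraries of day 0 (adjusted p = 0.00505), just short of the fold limit. Step by step, Fgf4 changed by −0.82 to day 5 (adjusted p = 0.0218) and −0.93 to day 6 (0.012), both within the fold limit, though the second was −1.07 after 75th percentile scaling and −1.01 after quantile normalization. It fell by 1.70 to day 7 (2.7e-04) and by 1.58 to day 8 (0.00117). The last of these was −1.14 with an adjusted p of 0.224 without replicate 3, X18 double, and its adjusted p was 0.338 in a fit of only the 2 days.

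Fgf5 was absent at this depth from naive cells and switched on between day 3 and day 4. None of the 12 libraries of days 0 to 2 held a read, where a count of 0 allows up to 2.11, 2.48 and 2.33 RPM as the mean floor of the day. On day 3, X14 double held 1 read and X18 double 3 reads (0.667 and 1.73 RPM), and the single libraries none. On day 4 it stood at 55.1, 69.2, 41.7 and 46.0 RPM in X14 double, X14 single, X18 double and X18 single, all far above day 3. The mean of 53.0 ± 12.2 RPM (SD, n = 4) was at least 25.2-fold higher than on day 0, and the step from day 3 was 6.26 ± 0.48 (SE) on the log2 scale (adjusted p = 1.3e-10).

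On day 5 Fgf5 was down to 5.20, 5.76, 2.50 and 6.60 RPM, from 4, 7, 4 and 19 reads. On day 6 it was back at 74.6, 131, 80.2 and 119.6 RPM. All 4 libraries of day 5 lay below all of day 4 and of day 6, in the shallowest library of the series (X14 double, day 5) and in the deepest (X18 single, day 5) alike. The fall was 10.6-fold in the means, or −3.46 ± 0.48 (SE) on the log2 scale (adjusted p = 5.5e-06), and the rise to day 6 was 20.2-fold, or 4.38 (1.4e-07). Both were called in every alternative run, with log2 changes of −3.68 to −3.20 and of 4.10 to 4.56. On days 7 and 8 the values ranged from 32.6 to 128 and from 23.9 to 92.8 RPM, with the highest in X14 single on both days. The means were 101 ± 28.1, 63.7 ± 44.2 and 62.1 ± 33.8 RPM on days 6, 7 and 8, at least 48.1-fold and 30.2-fold above day 0 on days 6 and 7, and neither of the last steps was called (adjusted p = 0.513 and 0.997).

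Of all genes tested, 288 (1.97%) were called lower on day 5 than on day 4 and higher on day 6 than on day 5, and Fgf5 was the only one of the 8 members among them. This rule was chosen after the values of Fgf5 were seen.

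**Figure D1:**
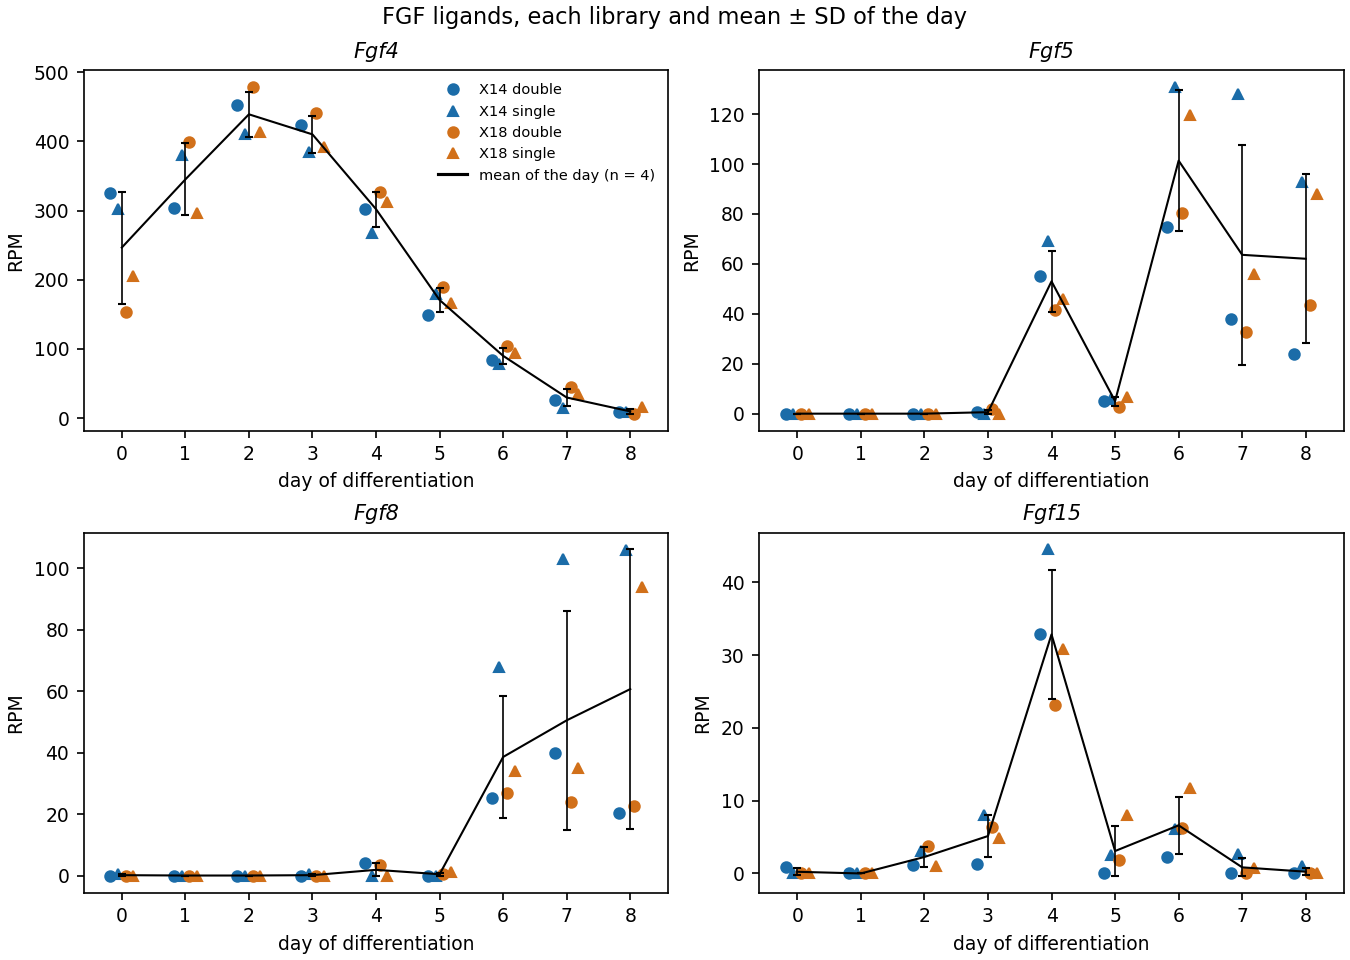
Level of the 4 ligand genes in RPM (vertical axis) in each of 36 libraries by day of differentiation (horizontal axis), with circles for double, triangles for single, blue for X14, orange for X18, and a line through the mean of the day with bars of 1 SD (n = 4). Fgf4 falls from 247 RPM on day 0 to 9.79 on day 8, Fgf5 has 53.0 RPM on day 4, 5.02 on day 5 and 101 on day 6, Fgf8 appears on day 6 and Fgf15 has 1 peak of 32.9 RPM on day 4.

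Fgf8 had almost no reads through day 5 and rose in 1 step to day 6. In the 16 libraries of days 0 to 3 it had 2 reads in all, both in X14 single. On day 4 X14 double and X18 double held 6 reads each (4.03 and 3.38 RPM) and both single libraries none, and on day 5 X18 double held 1 read and X18 single 3. On day 6 it stood at 25.4, 67.9, 27.0 and 34.1 RPM in X14 double, X14 single, X18 double and X18 single, with no overlap with any earlier day. The step was 5.36 ± 0.58 (SE) on the log2 scale (adjusted p = 1.3e-07), from 4 reads over the 4 libraries to 194. Values were 40, 103, 24.0 and 35.1 RPM on day 7 and 20.2, 106, 22.6 and 94.0 RPM on day 8. The means of days 6, 7 and 8 were 38.6 ± 19.9, 50.4 ± 35.4 and 60.8 ± 45.8 RPM, and neither of the last steps was called (adjusted p = 0.958 and 0.997). Against the 1 read of day 0, the pooled ratio was 222 on day 6 (95% exact interval 39.5 to 8829.8) and 393 on day 8 (70.1 to 15559.6), with log2 changes of 5.87 and 6.25 (adjusted p = 1.0e-09 and 1.7e-10).

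Fgf15 made 1 peak, on day 4. It had 2 reads on day 0, both in X14 double, and none on day 1. It then stood at 1.13, 3.11, 3.83 and 0.994 RPM on day 2 and at 1.33, 8.02, 6.34 and 4.88 RPM on day 3, in X14 double, X14 single, X18 double and X18 single. On day 4 the values were 32.9, 44.6, 23.1 and 30.8 RPM, all above every other library of the series. On day 5 they were 0, 2.47, 1.87 and 7.99 RPM and on day 6 2.26, 6.17, 6.22 and 11.8 RPM. After day 6 only 3 libraries held reads, 6 in all. Against day 0 the log2 change was 5.47 ± 0.60 (SE) on day 4 (adjusted p = 2.2e-08), with a pooled ratio of 105 (95% exact interval 28.7 to 872).

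The steps of Fgf15 into and out of day 4 were 2.91 (adjusted p = 0.0016) and −3.64 (6.9e-05), a 10.7-fold drop in the means that all 4 cultures shared, and both passed in every alternative run. The change on day 6 against day 0 was 2.97 (adjusted p = 1.8e-04). Its other calls were less firm and rested on 4 to 40 reads a day. On day 2 the change was 1.40 (adjusted p = 0.149) and passed only without replicate 1 (1.77, 0.0361). On day 3 the change was 2.56 (adjusted p = 0.00481), but adjusted p was 0.0864 without replicate 2 and 0.0793 without replicate 3. On day 5 it was 1.83 (adjusted p = 0.0171), but adjusted p was 0.0964, 0.0501 and 0.181 without replicates 2, 3 and 4 and 0.0828 without the X14 libraries of day 0, and 0.0604 after quantile normalization and 0.0629 in a fit of only the 2 days. The fall from day 6 to day 7 was −2.65 (adjusted p = 0.0192), but adjusted p was 0.235 without replicate 3, 0.273 without replicate 4 and 0.0671 in a fit of only the 2 days.

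Per length, the RNA of these 4 ligands passed from mostly Fgf4 to mostly Fgf5 and Fgf8. Of the summed RPKM of the 4 ligands, Fgf4 made up 99.8 ± 0.242% on day 0 (SD, n = 4), and 71.0 ± 6.30%, 93.4 ± 4.07% and 30.4 ± 8.44% over days 4 to 6, with 5.91 ± 3.76% left on day 8. The share on day 5 lay nearer to that of day 3, 97.7 ± 1.24%, than to those of days 4 and 6. Fgf5 made up 15.1 ± 3.40% on day 4, 39.2 ± 3.10% on day 6 and 36.5 ± 7.90% on day 8. Fgf8 made up 26.9 ± 7.60% on day 6 and 57.5 ± 9.01% on day 8, and Fgf15 12.9 ± 3.48% on day 4. In RPM, which does not correct for length, Fgf5 and not Fgf8 was the highest ligand on day 8 (62.1 and 60.8 RPM, well within their spread). The sum itself was 81.6 ± 27.0 RPKM on day 0, then 140.4 ± 1.84, 60.4 ± 6.06 and 103 ± 23.8 over days 4 to 6, and 73.2 ± 48.0 on day 8. These are levels in whole cultures, where fewer cells that express a gene and less RNA of it per cell cannot be told apart.

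**Figure D2:**
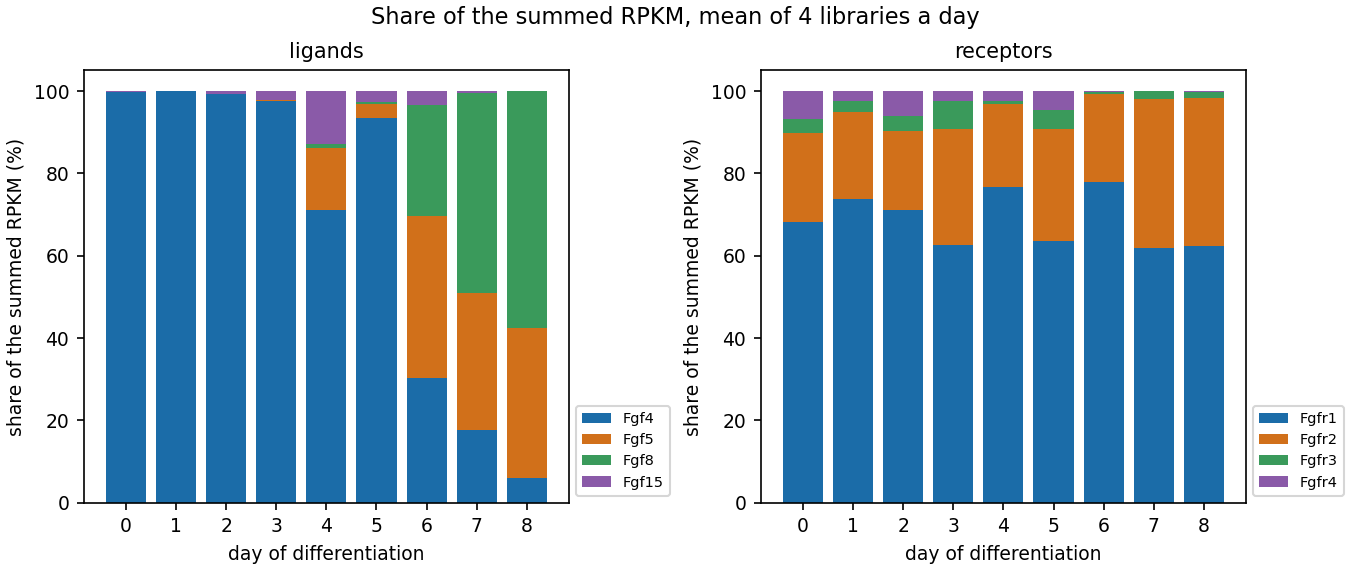
Share in percent (vertical axis) of the summed RPKM of the 4 ligand genes (left) and of the 4 receptor genes (right) by day of differentiation (horizontal axis), as the mean of the shares in 4 libraries a day. Among the ligands Fgf4 gives way to Fgf5 and Fgf8 from day 6, while Fgfr1 keeps the largest share of the receptors on all 9 days, between 61.8% and 77.8%.

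Fgfr1, the receptor with the highest level per length in the mean of every day, rose over the course. On day 0 it stood at 81.0 RPM in X14 double, 53.7 in X14 single, 21.6 in X18 double and 17.1 in X18 single, so the lines did not overlap. On day 4 the values were 128, 124, 96.9 and 74.0 RPM, and on day 6 they were 244, 290.0, 196 and 227 RPM. The 4 libraries of day 6 lay above all others, while those of day 4 overlapped with day 0. The means of days 0, 4 and 5 were 43.3 ± 29.9, 106 ± 25.1 and 105 ± 38.3 RPM (SD, n = 4), and those of days 6, 7 and 8 were 239.5 ± 39.1, 153 ± 27.4 and 143 ± 30.9 RPM. Against day 0, the log2 change was 1.54 ± 0.34 (SE) on day 4 (adjusted p = 0.00106), and 2.74, 2.09 and 1.99 over days 6 to 8 (1.0e-07, 7.8e-06 and 1.6e-05), and all of these passed in every alternative run.

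The earlier calls of Fgfr1 depended on single cultures. The change was 1.40 on day 2 (adjusted p = 0.0194), 1.39 on day 3 (0.00688) and 1.47 on day 5 (0.00103). Without replicate 3 the adjusted p was 0.5 on day 2 and 0.157 on day 3, and without replicate 4 it was 0.182 and 0.134 on those days and 0.0543 on day 5. In fits of only the 2 days it was 0.284, 0.125 and 0.0611. On day 1 the change was 0.71 (adjusted p = 0.921), but it was 1.60 and called without the X14 libraries of day 0 (adjusted p = 0.00318). By line, the change on day 1 was −0.10 in X14 and 1.52 in X18. The step from day 5 to day 6 was 1.27 (adjusted p = 0.0112), with 4 of 4 pairs higher and no overlap, and its adjusted p was 0.0916 without replicate 1 and 0.055 without replicate 2. An RNA gene on the opposite strand, Gm16159, lies inside Fgfr1 and held 169 reads over all libraries beside 6493 for Fgfr1, and whether counting used the strand is not given in the sources used here.

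Fgfr2 rose over the 9 days. Its values were 10.6, 8.80, 5.14 and 12 RPM on day 0 in X14 double, X14 single, X18 double and X18 single. On day 4 they were 28.2, 18.1, 25.3 and 23.5 RPM, and on day 8 they were 81.0, 86.0, 68.8 and 57.1 RPM. Neither of those days overlapped with day 0. The means of days 0, 1 and 2 were 9.13 ± 2.96, 14.6 ± 2.04 and 24.1 ± 10.4 RPM (SD, n = 4). Those of days 3 to 5 were 37.9 ± 10.2, 23.8 ± 4.26 and 38.7 ± 9.67 RPM, and those of days 6 to 8 were 58.5 ± 23.0, 79.1 ± 10.5 and 73.2 ± 13.0 RPM. The log2 change from day 0 was 2.08 ± 0.35 (SE) on day 3 (adjusted p = 1.0e-04) and 2.11 on day 5 (1.2e-05). Over days 6 to 8 it was 2.65 (2.2e-07), 3.17 (5.4e-09) and 3.05 (9.1e-09), and these 5 calls passed in every alternative run. In the means this was 8.66-fold on day 7 and 8.02-fold on day 8. No step between neighbouring days was called for Fgfr2.

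The calls of Fgfr2 on days 2 and 4 were less stable. The change on day 2 was 1.31 (adjusted p = 0.0281), with 1 of the libraries, X18 single, at 8.95 RPM and within the range of day 0, and the adjusted p was 0.112 without replicate 2 and 0.576 without replicate 3. It was 0.0602 after quantile normalization, 0.0569 with voom weights and 0.32 in a fit of only the 2 days. The change on day 4 was 1.43 (adjusted p = 0.00233) and its adjusted p was 0.0739 without replicate 3. The line of Fgfr2 in the deposited table runs over chr7:130162451-133123350, a span of 2960900 bases that overlaps 37 other genes of the table, and the RefSeq promoter of Fgfr2, chr7:130266809-130267058, lies inside it. Whether reads of the overlapping genes entered the level of Fgfr2 was not tested.

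Fgfr3, known for its part in cartilage growth, stayed low, with 223 reads in all 36 libraries. It stood at 9.33, 6.13, 12.7 and 5.85 RPM on day 3 in X14 double, X14 single, X18 double and X18 single. On day 4 the values were 0, 1.29, 1.13 and 1.12 RPM, and on day 5 they were 3.90, 7.41, 8.12 and 4.52 RPM. Day 4 thus lay below both neighbours in all 4 cultures, on 61, 6 and 38 reads. The steps were −3.02 ± 0.69 (SE) to day 4 (adjusted p = 0.00456) and 2.52 to day 5 (0.0104). Without replicate 1 or 3 the first had an adjusted p of 0.0587 or 0.0651, and without replicate 3 the second had 0.0673. On day 6 the mean was 1.52 ± 1.52 RPM (SD, n = 4) and the step −1.94 (adjusted p = 0.054, and 0.0364 with the replicate number as a block, 0.0432 after 75th percentile scaling and 0.0316 after quantile normalization).

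The X14 libraries of day 0 held 13 and 11 reads of Fgfr3 and the X18 libraries none, and its changes from day 0 turned on this. On day 3 the change was 1.90 (adjusted p = 0.0601), or 0.0404 with the replicate number as a block, 0.0343 and 0.0481 without replicates 1 and 2, 0.0492 on log2(RPM + 1) and 0.0349 with voom weights, and it was 3.26 (adjusted p = 0.00156) without the X14 libraries of day 0. Without them it was also called on days 2, 5 and 7, with changes of 2.02, 2.76 and 2.00 (adjusted p = 0.0423, 0.00414 and 0.0276). On day 5 it also passed without replicate 1 (2.08, adjusted p = 0.0385).

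Fgfr4, the receptor most used by endocrine FGFs in the liver, had 85 reads in all, spread over 21 libraries. The 4 libraries of day 5 held 2, 3, 6 and 10 reads (2.60, 2.47, 3.75 and 3.47 RPM). On days 6, 7 and 8 together 2 libraries held reads, 3 in all. The step from day 5 to day 6 was −2.15 ± 0.63 (SE) on the log2 scale (adjusted p = 0.0202) with no overlap, but adjusted p was 0.0742, 0.0857 and 0.0787 without replicates 1, 3 and 4. Day 7, with no read in any library, was called against day 0 at −1.56 (adjusted p = 0.0418), which as a bound is at least 1.04-fold lower, and the change was −0.45 (adjusted p = 0.632) without the X14 libraries of day 0. The adjusted p was 0.236 without replicate 1, 0.193 without replicate 2, 0.0583 with no filter on low values and 0.0635 in a fit of only the 2 days. Days 6 and 8 were not called (−1.49 and −1.29, adjusted p = 0.0543 and 0.0944), but both were after quantile normalization (0.0115 and 0.0239), day 6 also after 75th percentile scaling, on log2(RPM + 1) and with voom weights (0.041, 0.0431 and 0.0407) and day 8 without replicate 4 (0.0416). Day 5 was called higher (1.77, adjusted p = 0.0484) only without the X14 libraries of day 0, when day 0 rested on the X18 libraries with 0 and 1 reads.

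**Figure D3:**
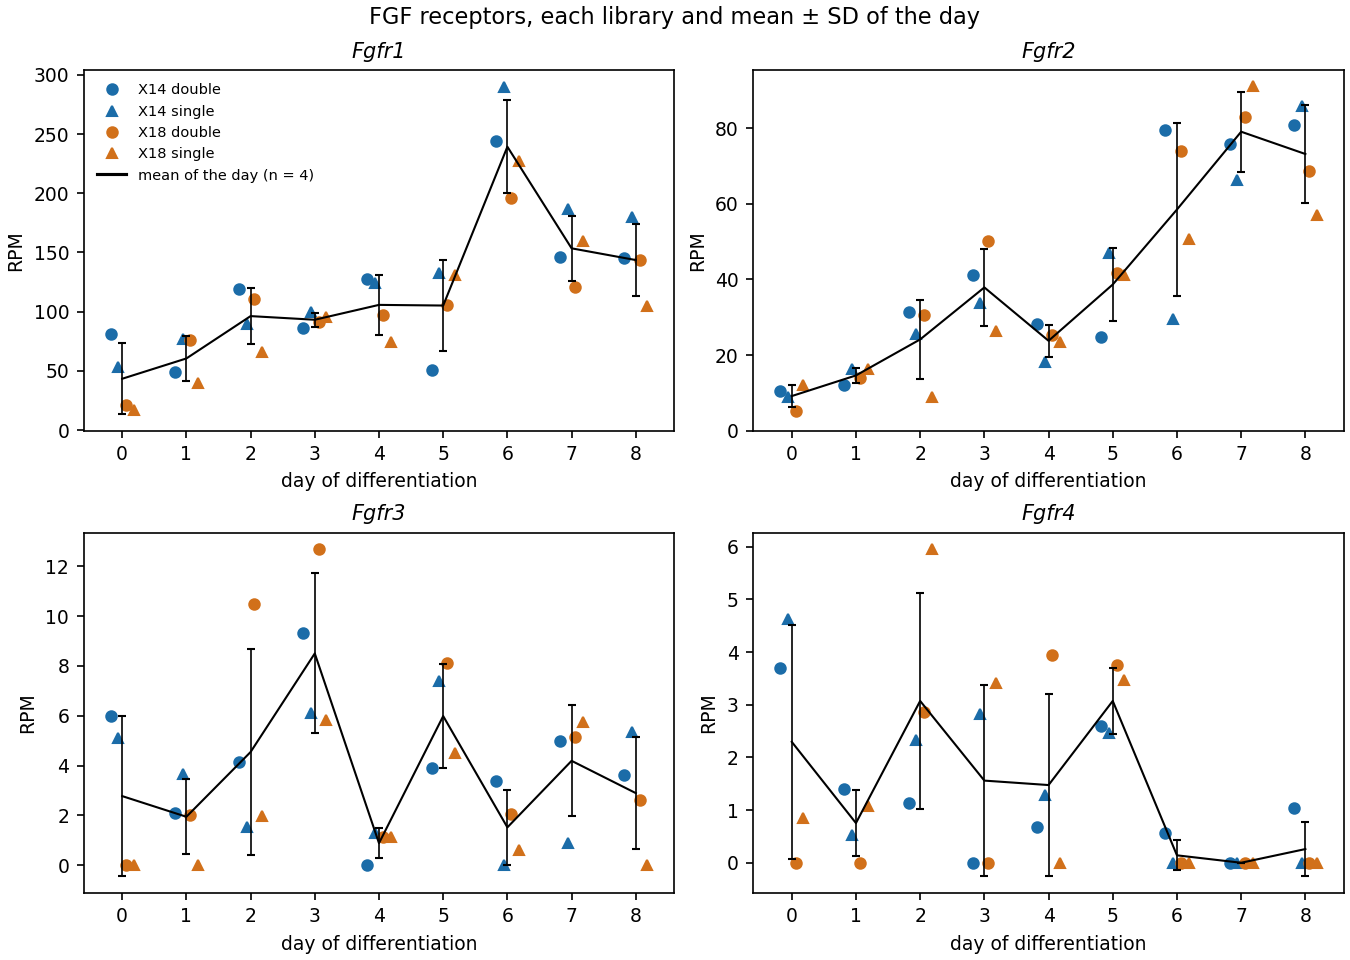
Level of the 4 receptor genes in RPM (vertical axis, a different scale in each panel) in each of 36 libraries by day of differentiation (horizontal axis), with circles for double, triangles for single, blue for X14, orange for X18, and a line through the mean of the day with bars of 1 SD (n = 4). Fgfr1 rises to 239.5 RPM on day 6 and Fgfr2 to 79.1 RPM on day 7, while Fgfr3 and Fgfr4 stay below 13 and 6 RPM in all libraries.

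Per length, Fgfr1 led the receptors on each day and Fgfr2 came next. Fgfr1 made up 68.3 ± 11.5% of the summed RPKM of the 4 receptors on day 0 (SD, n = 4), 76.7 ± 5.60% on day 4 and 62.4 ± 1.95% on day 8. Fgfr2 made up 21.4 ± 14%, 20.1 ± 5.04% and 36 ± 1.99% on the same days. The share of Fgfr1 on day 8 lay within 1 SD of that on day 0. Fgfr3 reached at most 6.62 ± 2.15%, on day 3, and Fgfr4 at most 6.77 ± 5.46%, on day 0, and at so few reads no order is given for this pair. The sum was 7.65 ± 4.80 RPKM at the start, 16.8 ± 3.14 on day 4, 37.8 ± 3.48 on day 6 and 28.3 ± 5.85 at the end.

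The other genes of the pathway were counted by list against day 0, beside the 18.6% of all genes called on day 4 and the 35.0% called on day 8. Of the other ligands that bind FGF receptors, 6 of 14 were tested, and on day 4 against day 0 none was called higher and 1 lower, with a median log2 change of −0.53 beside 0.12 for all genes. Fgf17, of the same subfamily as Fgf8, was the one that fell, by 1.93 on the log2 scale (1.17 against 5.49 RPM, adjusted p = 0.0104). On day 8 against day 0 Fgf17 was higher by 1.55 (13.0 RPM, adjusted p = 0.0228) and Fgf3, a ligand of the ear and tail bud, lower, with no read left on day 8 (at least 2.24-fold lower than its 5.14 RPM of day 0, adjusted p = 4.6e-04). Fgf3, Fgf4 and Fgf15 lie in a row on chromosome 7, all on the + strand, with 16949 bases between the first pair and 31288 between the second. Their courses differed, since Fgf15 stood at 32.9 RPM on day 4 when Fgf4 was already on its way down at 302 and Fgf3 was at 3.38 RPM. Of the intracellular FGF homologous factors, which are not secreted, 2 of 4 were tested and none was called on either day (median log2 change 1.33 on day 4 and −0.26 on day 8).

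Of the coreceptors and binding proteins, 1 of 7 tested was higher on day 4 and 2 lower (median 0.17), and on day 8, 3 were higher and 2 lower (median 0.73, beside 0.23 for all genes). Klb, the coreceptor for endocrine FGFs, fell by 2.35 to day 4 (0.984 against 5.86 RPM, adjusted p = 0.00355), and Il17rd, an inhibitor of FGF signalling also called Sef, rose by 1.72 (46.0 against 17.0 RPM, 0.0114). By day 8 Fgfbp1, which releases FGFs from the matrix, had risen by 4.69 (55.9 against 3.75 RPM, adjusted p = 7.5e-05) and Flrt3, a membrane protein that binds FGF receptors, by 4.32 (23.0 against 1.01 RPM, 1.3e-06). Genes of heparan sulfate synthesis and proteoglycans were mostly uncalled on day 4 (1 higher and 1 lower of 17, median 0.04), while on day 8 10 of 17 were higher and none lower (median 1.10). Ext1, a heparan sulfate polymerase, rose by 1.97 to day 4 (adjusted p = 2.6e-04) and the syndecan Sdc2 fell by 1.53 (2.8e-04). The glypican Gpc1 rose by 3.08 to day 8 (107 against 14.2 RPM, adjusted p = 1.1e-08) and the sulfotransferase Ndst2 by 2.15 (0.00271).

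Of 10 receptor adaptors 4 were higher on day 4 and 5 on day 8, none lower (medians 0.85 and 0.90), among them Frs2, the docking protein of FGF receptors, by 1.24 and 1.92 (adjusted p = 0.0258 and 3.1e-04). Shc1 rose by 1.24 to day 4 (adjusted p = 0.00128) and the phosphatase Ptpn11 by 1.75 to day 8 (1.0e-05). Of 11 genes for RAS, RAF, MEK and ERK 3 were higher and 1 lower on day 4 and 2 higher on day 8 (medians 0.29 and 0.66). Mapk3, which encodes ERK1, rose by 2.04 and 2.00 (129 and 127 against 36.1 RPM, adjusted p = 5.1e-05 and 2.3e-05), Braf by 1.21 to day 8 (0.0115), and the scaffold Ksr1 fell by 2.10 to day 4 (0.00798).

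Of the feedback inhibitors and ETS targets of FGF and ERK signalling, 11 of 12 were called higher and none lower on day 4. Their median log2 change was 2.22 beside 0.12 for all genes. On day 3, 7 of the 12 were already called higher (median 1.69, with 8.89% of all genes called). In the step from day 3 to day 4, 2 were called higher and none lower (5.03%). Spry4, an inhibitor of receptor tyrosine kinase signalling, had no read in any library of day 0 and stood at 37.6, 95.1, 24.2 and 83.0 RPM on day 4 in X14 double, X14 single, X18 double and X18 single (at least 28.5-fold higher, adjusted p = 3.5e-07). The ERK phosphatase genes Dusp4 and Dusp6 were likewise higher, at 32.1 against 0.463 RPM (log2 change 4.93, adjusted p = 1.1e-07) and at 143 against 5.27 RPM (4.75, 8.8e-09). On day 8, 7 were higher and 2 lower (median 1.85, or 1.35 taking the bound for a gene without reads). The lower ones were Etv4 and Etv5, ETS factors downstream of FGF, with log2 changes of −1.81 and −1.71 (adjusted p = 0.0119 and 1.8e-05), while Dusp4 and Dusp6 remained higher by 4.18 and 3.25. Etv4 and Etv5, like Etv1 and Spry2 below, fall outside the rule for named genes and were chosen after their values were seen. Without the X14 libraries of day 0, an alternative chosen after seeing the data, 29.8% of all genes were called on day 4 and 42.3% on day 8. The feedback list then had 11 higher and none lower on day 4 and 6 higher and 1 lower on day 8, the receptor adaptors 6 and 7 higher, and the heparan sulfate list 4 higher and 1 lower on day 4 and 10 higher on day 8. Of the 26 changes of pathway genes named against day 0 on these days, 23 were still called. The others were Fgf17 on day 4 (−1.03, adjusted p = 0.199), Ksr1 on day 4 (−1.72, 0.062) and Etv4 on day 8 (−1.16, 0.176).

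Some of these genes fell from day 4 to day 5, as Fgf5 and Fgf15 did. From day 4 to day 5 5 of the 12 fell and none rose, beside 10.6% of all genes called in either direction. Their median was −0.98, beside −0.02 for all genes. Spry4 stood at 0, 9.88, 9.99 and 16.0 RPM on day 5, below all libraries of day 4 (log2 change −2.98, adjusted p = 0.0113). Etv4 fell by 1.86 (14.8 against 53.4 RPM, adjusted p = 0.0268), Etv5 by 1.21 (172 against 385 RPM, 0.0047), Etv1 by 1.93 (0.0336) and Spry2 by 1.32 (0.0402). From day 5 to day 6 1 of the 12 was called higher, Spry2 by 1.41 (adjusted p = 0.0326), beside 9.72% of all genes called. Spry4 and Etv5 were higher in 4 of 4 cultures without passing (27.1 and 283 RPM, adjusted p = 0.156 and 0.0819). In contrast Dusp6 did not pass in either step (143, 103 and 104 RPM on days 4, 5 and 6, adjusted p = 0.598 and 0.985). Of all genes in the pathway lists, Sulf1 and Spry2 were called in both steps as Fgf5 was, beside 1.97% of all genes tested.

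**Figure D4:**
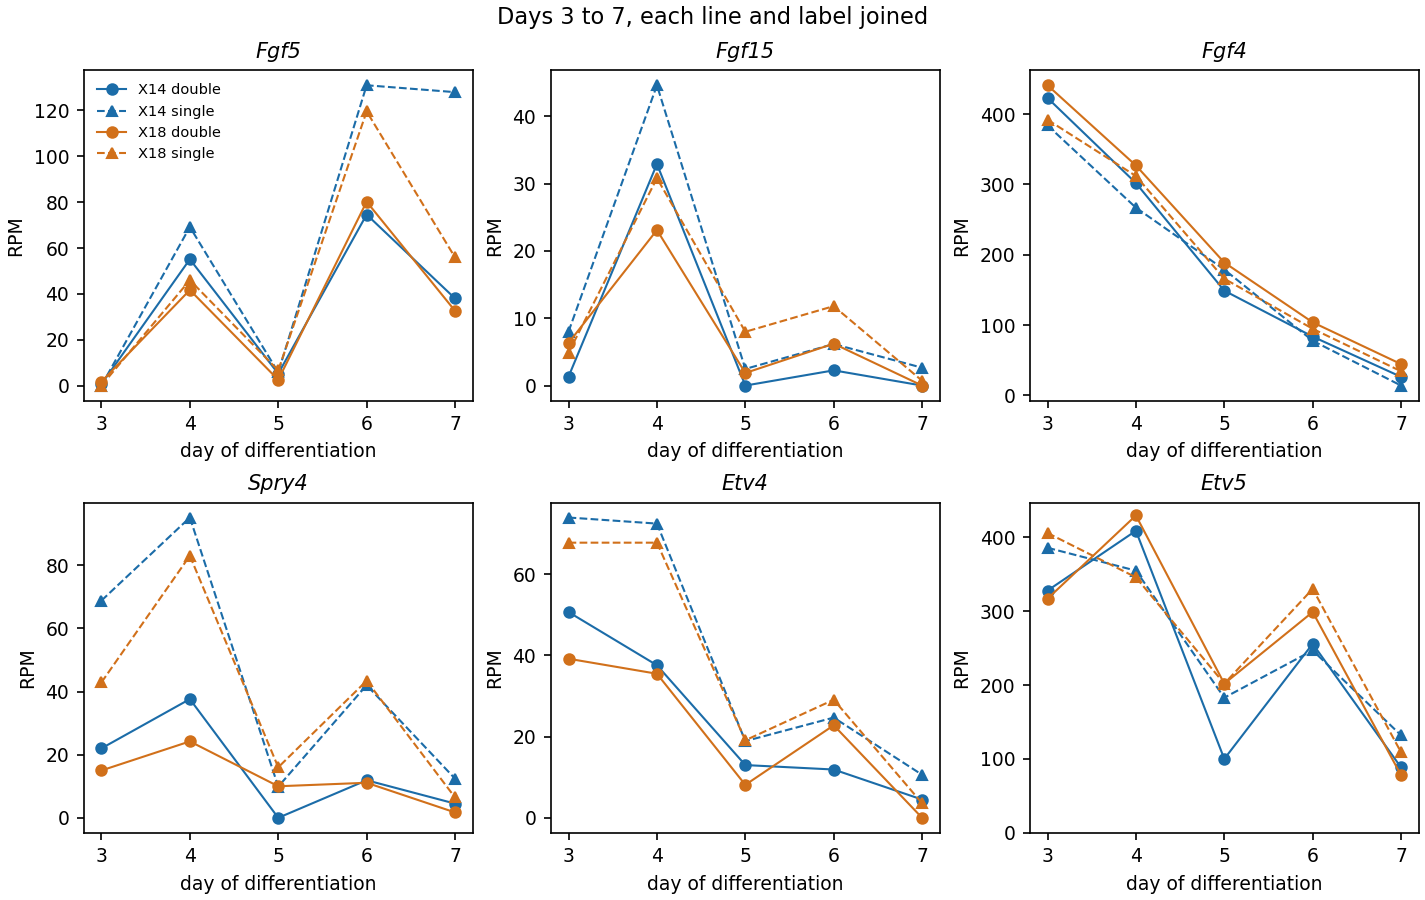
Level in RPM (vertical axis) of Fgf5, Fgf15, Fgf4, Spry4, Etv4 and Etv5 in each of the 4 cultures on days 3 to 7 (horizontal axis), the points of a line and label joined, with circles and full lines for double, triangles and broken lines for single, blue for X14 and orange for X18. Fgf5, Fgf15, Spry4, Etv4 and Etv5 are lower on day 5 than on day 4 in all 4 cultures and Fgf5 then rises to 74.6 to 131 RPM on day 6, whereas Fgf4 declines through day 5 without a rise.

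Markers of cell state moved with these days. The 5 primed epiblast markers (Otx2, Pou3f1, Dnmt3b, Zic2 and Lef1) summed to 1752 to 3549 RPM on day 4, 349.7 to 1030.3 on day 5 and 761 to 1314 on day 6, and 4 of 5 fell from day 4 to day 5. Primitive streak and mesoderm markers summed to 2.43 to 9.37 RPM on day 5, with Mixl1, Mesp1, Gsc and Evx1 at 0 in all libraries, and to 49.2 to 117 on day 6, when 3 of 6 tested rose. T, the streak marker Brachyury, went from 0.293 to 22.6 RPM in that step (pooled ratio 63.6, 95% exact interval 17.2 to 532, adjusted p = 2.1e-06), the same step in which Fgf8 appeared. On day 8 simple epithelium markers summed to 3789 to 6661 RPM against 225 to 898 on day 0, and all 5 of them were called higher. Trophectoderm markers summed to 152 to 493 RPM on day 8 against 78.1 to 129.7 on day 0, with 4 of 5 tested higher. Of all genes tested, 10.6% were called in the step to day 5, 9.72% in the step to day 6 and 35.0% on day 8 against day 0. The part of cell composition in the changes of the FGF genes was not tested.

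By label over all 9 days, limma called no member between double and single libraries, where 2.99% of all genes were called. An unadjusted p under 0.05 was found for 2 members and for 4241 of the 14612 genes. Log2 differences ran from −0.57 for Fgf15 to 0.64 for Fgfr3, and again no member was called without day 0. Nor was a member called between the lines X18 and X14, where 0.0137% of all genes were called. Here 1 member and 2546 genes had an unadjusted p under 0.05. Log2 differences between the lines ran from −0.36 ± 0.15 (SE) for Fgfr1 to 0.42 ± 0.26 for Fgf15. Fgfr1 was lower in X18 in 15 of 18 pairs of the same day and label (adjusted p = 0.239). The change from day 0 was not called different between lines on day 4 (0.0342% of all genes called) or on day 8 (0.137%). An unadjusted p under 0.05 was found for 4 members and 2523 genes on day 4 and for 3 and 1985 on day 8. Between labels the change was not called different on day 4 (0.192%) or on day 8 (0.116%) either. Such a p was found for 1 member and 1130 genes on day 4 and for 1 and 1129 on day 8. The comparison between labels rests on the day 0 libraries of X14 and was not run without them. From day 0 to day 8 the direction of the well measured members was nonetheless the same in both lines. Fgf4 changed by −5.16 in X14 and by −4.19 in X18 on the log2 scale, Fgfr1 by 1.30 and 2.68 and Fgfr2 by 3.11 and 3.0. Fgf5, with no read on day 0, stood at 58.3 RPM in X14 and 65.8 in X18 on day 8. Fgf8, with 1 read on day 0, stood at 63.3 and 58.3 RPM. No log2 change by line is given for these 2 ligands, because the value written for no reads depends on depth. On day 4 the change of Fgf4 was −0.14 in X14 and 0.85 in X18.

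On days 6 to 8, days chosen after the values were seen, 2 members were called lower in double than in single libraries, among 6.30% of all genes called. Fgf5 was lower by 1.15 ± 0.20 (SE) on the log2 scale (adjusted p = 0.00167) and Fgf8 by 1.35 ± 0.24 (0.00194), each in 6 of 6 pairs of the same line and day. On day 8 Fgf8 stood at 20.2 RPM in double and 106 in single of X14 and at 22.6 and 94.0 in X18, ratios of 5.26 and 4.15. Both calls held without either X18 culture and were lost without either X14 culture. Without replicate 1 the differences were −0.79 and −0.98 with adjusted p of 0.0981 and 0.0809, and without replicate 2 adjusted p was 0.144 and 0.229. The other 6 members were not called on these days, with differences from −1.06 for Fgf15 (adjusted p = 0.0926) to 1.07 for Fgfr3 (0.174).

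T was lower in double libraries in the same 6 of 6 pairs, with 34.3 against 183 RPM in X14 and 15.7 against 69.0 RPM in X18 on day 8. Over the 6 libraries of each label on days 6 to 8, the primitive streak list summed to 18 to 69.0 RPM in double and 32.3 to 244 in single, and the trophectoderm list to 159.7 to 493 in double and 32.8 to 231 in single. Beside the 6.30% of all genes called, 5 of the 12 feedback inhibitors and ETS targets were lower in double libraries and none higher (median −1.0, beside −0.01 for all genes). Of the primitive streak markers 3 of 6 were lower (median −1.48) and of the primed epiblast markers 2 of 5 (−0.98). Of the trophectoderm markers 4 of 5 were higher (1.94) and of the naive pluripotent markers 2 of 8 (0.92). The sum of the naive list was not higher, with 366 to 1326 RPM in double (median 748) and 603 to 1302 in single (median 851). Over all 9 days 3 of the 12 feedback inhibitors and ETS targets were lower in double libraries and none higher. Their median was −0.87, beside −0.05 for all genes, of which 2.99% were called. On day 4 Spry4 was lower in double libraries, at 37.6 against 95.1 RPM in X14 and 24.2 against 83.0 in X18. Etv5 was higher in double libraries that day (409 against 355 and 429.7 against 346). The part of these lists in the label difference of Fgf5 and Fgf8 was not tested.

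**Figure D5:**
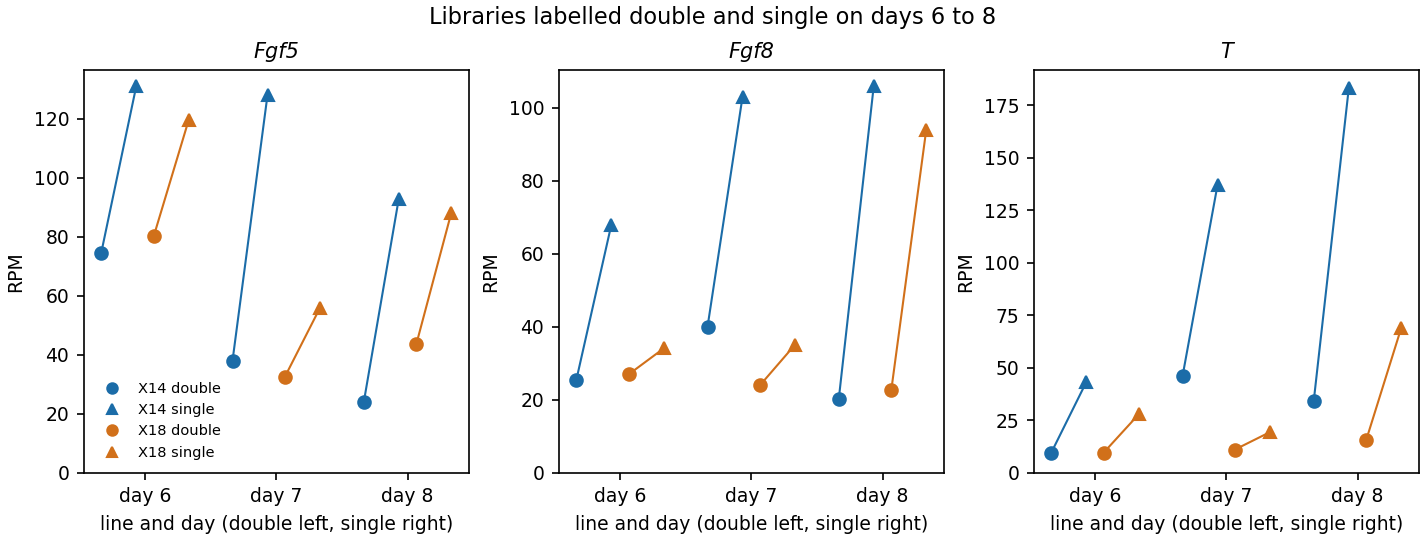
Level in RPM (vertical axis) of Fgf5, Fgf8 and T on days 6, 7 and 8 (horizontal axis), each line joining the double library (circle, left) and the single library (triangle, right) of the same line and day, with X14 in blue and X18 in orange. In all 18 pairs drawn the single library is the higher one, with Fgf8 on day 8 at 20.2 and 22.6 RPM in double and 106 and 94.0 RPM in single.

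Genes with the course most like that of a member were found by Pearson's r over the 9 day means of the log2 value, among 12167 genes of at least 5 RPM on 1 day or more (12168 for Fgfr4), as a description. For Fgf4 the nearest were Lama3 (r = 0.993), the pluripotency factor Pou5f1 (0.992) and Gm19553 (0.990). For Fgf5 they were Phox2a (0.981), Ogfr (0.980) and Oasl2 (0.979), and for Fgf8 Zfyve27 (0.996), the VEGF receptor gene Flt1 (0.992) and Nos2 (0.991). For Fgf15 they were Sephs1 (0.960), the de novo DNA methyltransferase gene Dnmt3a (0.951) and Cenpo (0.948), of which Dnmt3a went from 54.1 RPM on day 0 to 618 on day 4 and 168 on day 5. The receptors Fgfr1 and Fgfr2 were nearest to Plxna1 (0.993), Pom121 (0.991) and 1110018G07Rik (0.991), and to Arhgef1 (0.985), Copa (0.984) and Phactr4 (0.984). Fgfr3 had no gene above 0.850 (Ccdc163, then Stt3a at 0.841 and Lrrc39 at 0.830), and for Fgfr4 the nearest were Pnkd (0.910), Zdhhc24 (0.880) and Ostm1 (0.880). All of these correlations share the same 36 libraries and the same 9 means. The r value takes no account of the size of a change. From day 0 to day 8 Fgf8 went from 0.116 to 60.8 RPM, and Zfyve27, Flt1 and Nos2 from 21.4 to 37.0, 0 to 77.3 and 0.116 to 4.39. For genes without reads on some days the means also hold the value written for no reads, which depends on depth.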

How the data were processed

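RNA-seq libraries of 36 samples were sequenced as 75 bp single-end reads, trimmed with trim_galore and mapped with tophat or hisat2 (genome build mm10), and gene levels were made in SeqMonk, per the study's methods (TopHat2 2.0.12 and bcl2fastq are in the submitters' processing notes). The deposited values, made by the authors, are log2 RPKM, although the name of the table says log CPM, and a gene without reads is written as 0.9 read. The annotation and the use of strand are not given in the sources used here. Whole reads came out for 100% of genes (tolerance 0.05 read) and gave the reads and RPM. All columns matched a sample.

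Genes with at least 1 RPM in at least 4 of 36 libraries (14612) were tested with limma 3.58.1 in R 4.3.3 (deposited log2 values, lmFit, eBayes with trend, day as the only factor), with Benjamini-Hochberg adjustment over all of them and a call at an adjusted p under 0.05 and a log2 fold of at least 1. The label test had day and line, and the line test day and label, as covariates, and interactions came from means of day by line or label. The scripts were tested on simulated data. The members and gene lists were chosen with earlier results of these data known. The text names, per pathway list, the 2 largest called folds on days 4 and 8 that reach 5 RPM in the higher mean, the 3 genes of highest r per member, and markers beside a result. Folds against 0 reads are bounds at 3 reads per library, and ratios against 1 to 3 reads have 95% exact conditional intervals. Alternatives changed the filter, scaling, weights, libraries and block. Same-numbered libraries share a line and label, and their deviations from the day means had a mean r of 0.127 over 144 pairs against −0.042 over 432 others. The replicate number was therefore used for the counts of pairs and as the block of an alternative fit. The main fit between days was not paired. The correlation within a culture estimated as a random effect was −0.065. Line and label were already factors of that fit and took up most differences between cultures. The value thus does not show that the libraries of a culture are independent.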

Additional observations from a re-analysis of the deposited data

Results flagged for a closer look

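In 47 groups of 4 libraries of one member and day with at least 10 reads in all, the gap between the lowest or highest library and its neighbour, divided by the range, exceeded Dixon's 95% critical value in 2, and chance alone gives about 1 in 20 groups. For Fgfr2 on day 2, X18 single stood at 8.95 RPM (9 reads, ratio 0.842) with the others at 25.7 to 31.3 RPM. For Fgfr3 on day 7, X14 single stood at 0.884 RPM (1 read, ratio 0.926) with the others at 5.0 to 5.74 RPM.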

How the results depend on the processing

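Of 277 alternative counts of members called, 253 stayed within 1.5 times the value reported and 24 did not. Of 861 alternative folds of single members, 780 kept direction and call, 47 lost the call, 32 gained it and 2 reversed. The reversed ones were Fgfr3 on day 2 against day 0 without replicate 3 (−0.29, reported 0.66, range −0.29 to 1.45 with each replicate left out) and on day 7 without replicate 4 (−0.11, reported 0.65, range −0.11 to 1.70). Against day 0 and without the X14 libraries of day 0, 1 member was called on day 1, 4 on day 2 and 5 on day 3, beside 5.61%, 23.2% and 24.9% of all genes. Day 2 gave 1 after quantile normalization, 1 with voom weights and 0 in a fit of only the 2 days, and day 5 gave 2 in such a fit. With a mean of at least 10 RPM, 1 member was called in each of the steps to days 4, 5 and 7 and 5 over all days (the last chosen after seeing the data), since fewer members were then tested. In a fit of only the 2 days, the steps to days 7 and 8 gave 1 and 0.

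Leaving out each replicate in turn gave 0 to 4 members on day 2, 1 to 4 on day 3 and 2 to 5 on day 5, and 2 to 3 in the step to day 6, 1 to 2 in that to day 7 and 0 to 1 in that to day 8. For double against single on days 6 to 8 it gave 0 to 2. The replicate block changed 2 calls of members, Fgfr3 on day 3 (adjusted p = 0.0404) and in the step to day 6 (0.0364), and no other, while genes called in all rose to 687 on day 2 against day 0 and to 28, 51 and 102 in the steps to days 2, 3 and 8. Same-numbered pairs with an X14 library of day 0 had a mean r of −0.108, and the others 0.156. Genes called in all moved by over 1.5 times in 92 of 277 alternatives. Depth limits Fgfr3 and Fgfr4 most, with 223 and 85 reads in all. The causes of these changes were not tested.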
